A study of Mus musculus with 2 samples.

Results

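Cholesterol synthesis, the intake and movement of sterols, and the sterol sensing system of SREBP2 (sterol regulatory element binding protein) were examined in mouse liver through 29 genes. They were taken as a list in pathway order, with 8 genes of the early mevalonate steps, 12 of the late sterol steps and 9 of uptake and regulation. All probe sets that the platform annotation gives to a listed gene were used, and 27 of the 29 genes were measured, by 60 of the 34945 probe sets that carry a single gene symbol. No probe set was named for Acat2, the cytosolic acetoacetyl-CoA thiolase, or for Soat2, a sterol esterifying enzyme, and neither was analysed here. The study asked how liver gene expression differs after injury to the kidneys. The acute kidney injury (AKI) group held female wild-type C57BL/6 mice, 8 weeks old, 24 h after both kidneys were made ischemic for 30 min (warm ischemia, then reperfusion), and the sham group held mice of the same sex, strain, genotype and age at the same time after a sham operation. For each group, frozen liver from 3 mice went into a single pool, and 1 Affymetrix array was run per pool. There is no replicate array, so variation between mice cannot be estimated and no difference between the pools has a p-value. "Higher" and "lower" describe these 2 pools only.

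Cholesterol is built from acetyl-CoA through mevalonate, the isoprenoid pyrophosphates, squalene and lanosterol, and the liver is a main site of this synthesis and of the uptake of lipoprotein cholesterol. Most genes of the pathway are targets of SREBP2, a membrane-bound transcription factor that the escort protein SCAP carries from the endoplasmic reticulum to the Golgi for cleavage when sterols are scarce. When sterols are plentiful, the INSIG proteins hold SCAP in the endoplasmic reticulum and transcription of the targets drops. SREBP2 binds short sterol regulatory elements near the start of its targets, usually together with the factors NF-Y and Sp1.

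The promoters of 6 genes are shown because they include the members with the largest differences between the pools for which a promoter was at hand (Hmgcs1, Idi1, Mvk and Msmo1), the feedback gene Insig1, and Tm7sf2, whose signal was higher in the AKI pool. The sequences are from RefSeq, build GRCm38.p6, end 1 base before the annotated start site and are written 5′ to 3′ on the strand of the gene. Capitals mark the sterol regulatory element core (TCACNCCAC), the NF-Y box (CCAAT) and the E-box (CACGTG), found on either strand, so that an NF-Y box on the other strand reads ATTGG.
Hmgcs1, chr13:119690151-119690350, plus strand: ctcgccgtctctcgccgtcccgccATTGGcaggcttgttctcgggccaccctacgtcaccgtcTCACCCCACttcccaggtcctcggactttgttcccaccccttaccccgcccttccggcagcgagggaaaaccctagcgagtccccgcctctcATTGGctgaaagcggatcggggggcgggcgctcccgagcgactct
Idi1, chr13:8885406-8885605, plus strand: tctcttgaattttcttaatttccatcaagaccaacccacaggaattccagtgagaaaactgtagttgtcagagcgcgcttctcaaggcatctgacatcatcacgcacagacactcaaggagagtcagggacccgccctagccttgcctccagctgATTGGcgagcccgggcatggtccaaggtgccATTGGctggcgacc
Mvk, chr5:114444069-114444268, plus strand: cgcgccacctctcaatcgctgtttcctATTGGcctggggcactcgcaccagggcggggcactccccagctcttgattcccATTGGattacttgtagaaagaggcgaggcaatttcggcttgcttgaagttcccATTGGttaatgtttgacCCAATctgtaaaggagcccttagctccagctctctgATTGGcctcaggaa
Msmo1, chr8:64733579-64733778, minus strand: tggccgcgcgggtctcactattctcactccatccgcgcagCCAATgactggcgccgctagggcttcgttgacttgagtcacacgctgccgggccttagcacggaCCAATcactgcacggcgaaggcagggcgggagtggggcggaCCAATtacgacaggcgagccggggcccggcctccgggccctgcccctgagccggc
Insig1, chr5:28071162-28071411, plus strand: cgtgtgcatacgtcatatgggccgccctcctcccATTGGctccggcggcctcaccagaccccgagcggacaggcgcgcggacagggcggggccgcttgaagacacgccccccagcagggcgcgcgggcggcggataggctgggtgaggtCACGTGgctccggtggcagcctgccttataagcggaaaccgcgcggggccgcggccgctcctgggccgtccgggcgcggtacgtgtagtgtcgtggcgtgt
Tm7sf2, chr19:6067851-6068050, minus strand: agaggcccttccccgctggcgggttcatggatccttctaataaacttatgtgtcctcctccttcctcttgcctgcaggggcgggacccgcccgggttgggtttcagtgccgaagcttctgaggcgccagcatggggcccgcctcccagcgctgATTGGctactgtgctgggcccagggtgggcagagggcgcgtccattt

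RefSeq promoters, each from 250 bases before to 50 bases after a start site, were found for 23 of the 29 listed genes, and the others are Fdps, Fdft1, Sqle, Stard4, Npc1 and Soat2. The sterol regulatory element core was in 1 of these 23 genes, Hmgcs1, against 1.44% of all 27025 genes with a promoter. In Hmgcs1 it lay at positions -137 to -129 from the start, in the stretch shown above, with NF-Y boxes on both sides. The search used the core letters alone. The NF-Y box was in 21 of the 23 genes (91.3%), against 41.1% of all genes with a promoter and 42.0% of the genes past the level filter described below. Mvk held 5 NF-Y boxes, Hmgcs1 and Nsdhl held 4 each, and Acat2 and Scap had no match in this window. An Sp1 box (GGGCGG) was also in 21 of the 23 genes, against 38.2% of all genes with a promoter and 62.8% of those past the level filter. The E-box was in 5 of 23 genes (21.7%), namely Hsd17b7, Sc5d, Dhcr7, Insig1 and Scap. It was in 8.09% of all genes with a promoter and 11.0% of those past the level filter. The E-box reads the same on both strands, and no 2 matches overlapped in the promoters of the listed genes. NF-Y boxes were present in 8 of 8 measured members that were lower by 2-fold or more in the AKI pool and in 13 of the 14 that differed by less than 2-fold. A match is a description of the letters and shows neither binding nor use.

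**Figure D1:**
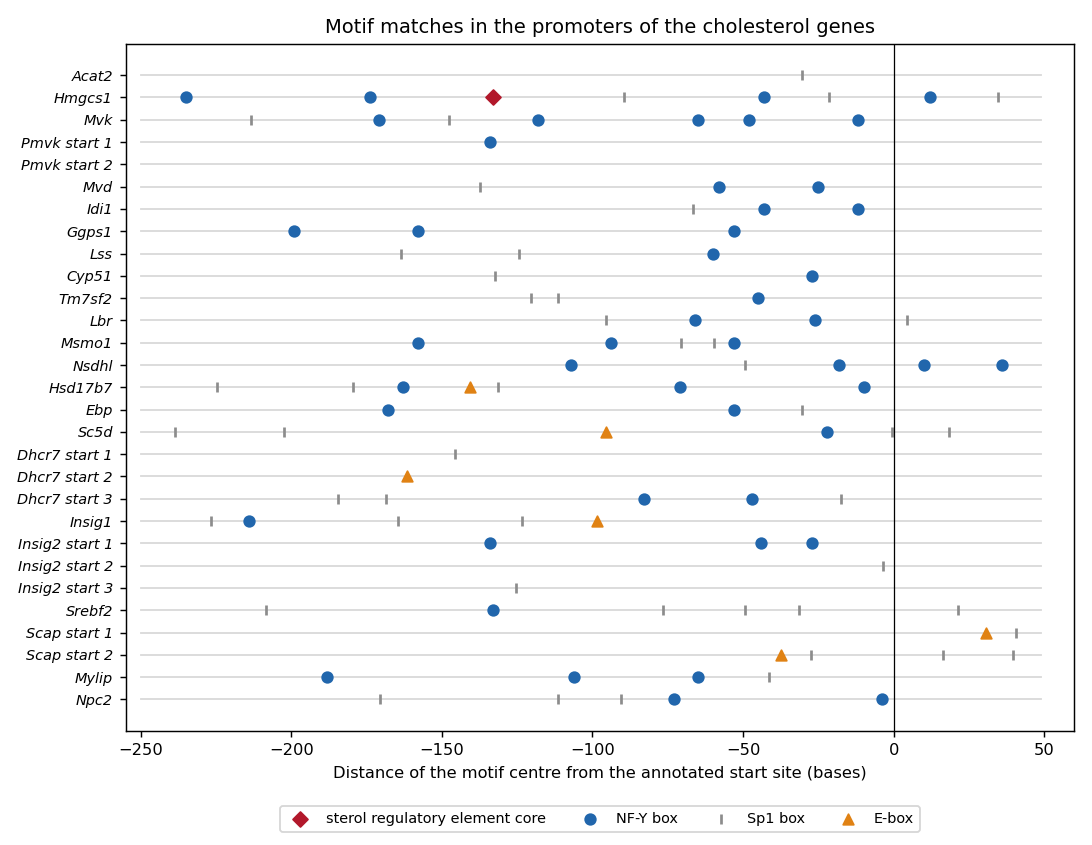
Motif matches in the RefSeq promoters of the 23 listed genes that have one, with the distance of each motif's centre from the start site in bases (x axis) and a line per annotated start (y axis, in pathway order). NF-Y boxes appear in 21 of the 23 genes, and the single match to the sterol regulatory element core is in Hmgcs1.

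The values are signal intensities per probe set on a linear scale, and the median signal was 231.8 on the AKI array and 225.8 on the sham array. Each difference is given in log2 units as AKI minus sham, after 71.8 was added to both signals, and this addition shrinks the differences of weakly expressed genes. Where a gene had several probe sets, the strongest over both arrays stands for it, and a gene passed the level filter when this probe set reached, in the AKI or the sham pool, the median signal of the probe sets that are not controls (231.8 AKI, 225.7 sham). All 8 hepatocyte markers passed, and Alb, the albumin gene, had a signal of 98303.4 in the AKI pool and 124516 in the sham pool. All 27 measured cholesterol genes passed the filter, 25 of them on both arrays, while Idi1 and Mvk passed on the sham array only. The background level of these signals is not known here and detection calls were not used, so the size of a difference against a signal below the filter level is uncertain.

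Cholesterol genes were mostly lower in the AKI pool. Of the 27 measured genes, 13 were at least 2-fold lower (48.1%), against 12.4% of all 13128 genes past the filter, and 0 were at least 2-fold higher, against 10.4%. At the 4-fold threshold 5 were lower, against 2.37% of all genes, and 0 were higher, against 2.09%. The 5 lower genes were Idi1, Hmgcs1, Mvk, Msmo1 and Fdft1, of which Idi1 and Mvk passed the filter through the sham array only. This count was 3 with a pseudocount of 228.7 and 8 with the arrays centred on reference genes. The median difference of the 27 genes was -0.96, against -0.02 over all genes, and 24 of the 27 were below 0, against 51.1% of all genes. The 3 genes above 0 were Ggps1, Tm7sf2 and Lbr. The only repeat measurement of a gene is a further probe set within each array, and for the 14 members measured by several passing probe sets the SD within genes was 0.69, close to the 0.70 over 5149 such genes. The differences of 9 members were smaller than 0.69 and so lay within this spread. Mvd (-1.13) lay just inside the 2-fold threshold and Dhcr7 (-0.96) just outside it. In pooled liver, fewer cells of a type and less RNA per cell cannot be told apart.

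The direction depends on how the arrays are scaled for the members near 0. With the arrays centred on 18 spiked hybridization control probe sets, the median of all genes moved to 0.28 and that of the cholesterol genes to -0.67, and with centring on 10 reference genes they moved to -0.31 and -1.25. Each of these centrings shifts every gene by the same amount, so the distance between the cholesterol genes and all genes, -0.94, cannot change under them. Centring on the hybridization controls made Pmvk, Cyp51, Ebp, Srebf2, Mylip and Npc2 positive, between 0.02 and 0.23, and left 18 members below 0.

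**Figure D2:**
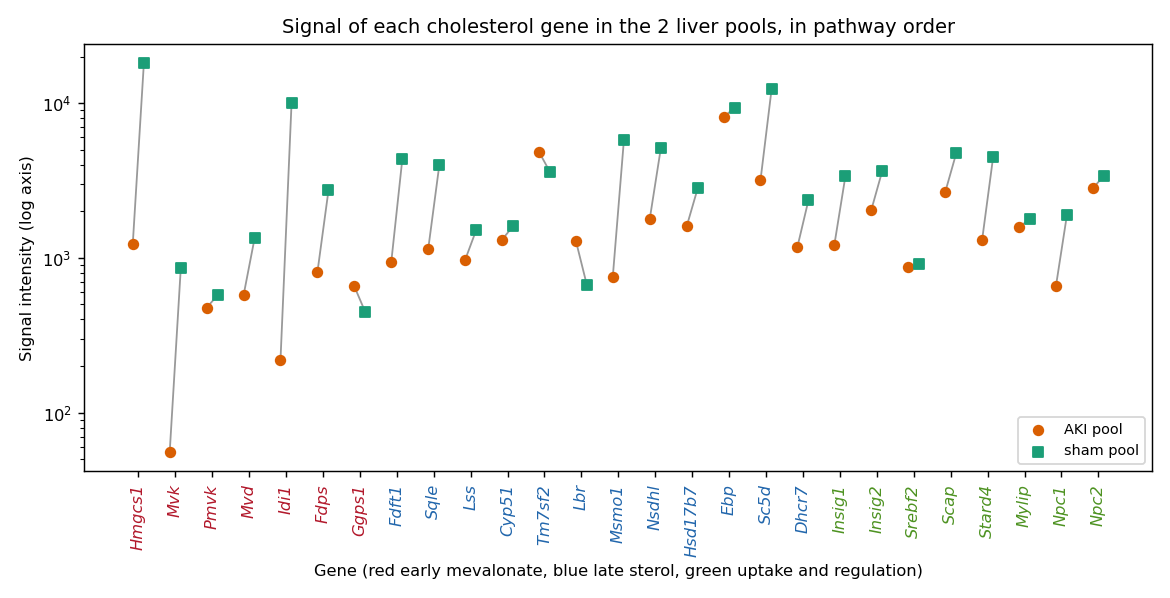
Signal intensity (y axis, log scale) of the 27 measured cholesterol genes in the AKI pool (circles) and the sham pool (squares), 1 array each, in pathway order (x axis). The widest gaps are at Hmgcs1, Mvk and Idi1, and the AKI circle lies above the sham square at Ggps1, Tm7sf2 and Lbr.

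Among the early mevalonate genes, 5 of the 7 measured passed the 2-fold threshold downwards, beside 12.4% of all genes. The median difference of the 7 was -1.67. Hmgcs1 encodes the cytosolic synthase that joins acetyl-CoA to acetoacetyl-CoA. Its signal was 1236.4 in the AKI pool and 18063 in the sham pool, so the AKI signal was 6.84% of the sham signal and the difference was -3.79. The 3 other Hmgcs1 probe sets past the filter lay between -3.77 and -3.37, a narrow range beside the SD of 0.69. Mvk, mevalonate kinase, had a signal of 55.7 in the AKI pool and 858.1 in the sham pool (-2.87). The AKI signal of Mvk is below the 25th percentile of the table, so the size of its difference depends on the pseudocount, from -1.93 at a pseudocount of 228.7 to -3.92 at 1. The next kinase gene, Pmvk, differed little, with 476.9 in the AKI pool and 573.9 in the sham pool (-0.23).

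Mvd, the decarboxylase that makes isopentenyl pyrophosphate, had a signal of 573 in the AKI pool and 1343 in the sham pool (-1.13). The second Mvd probe set had 81.9 in the AKI pool and 759.6 in the sham pool (-2.44). That probe set is of a design that may also match other transcripts. Idi1, the isomerase that turns isopentenyl into dimethylallyl pyrophosphate, had the lowest difference of all genes past the filter at the pseudocount used. Its signal was 218.3 in the AKI pool and 10033.7 in the sham pool, a difference of -5.12. The AKI signal is below the filter level of 231.8, so this size and the rank among all genes may include background signal. Its other probe set had 93.6 in the AKI pool and 1886.8 in the sham pool (-3.57).

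Downstream of Idi1, the farnesyl pyrophosphate synthase gene Fdps was lower, with a signal of 807.5 in the AKI pool and 2728.3 in the sham pool (-1.67). The only other Fdps probe set was weak, with 110.7 in the AKI pool and 25.9 in the sham pool, and did not pass the filter. Ggps1 makes geranylgeranyl pyrophosphate for protein prenylation, a branch that leaves the sterol pathway at farnesyl pyrophosphate. It was the only early gene above 0, with 654.7 in the AKI pool and 444.8 in the sham pool (0.49). The 4 Ggps1 probe sets ranged from -0.41 to 0.99 with 2 on each side of 0, and it was -0.14 with probe sets of possible multiple matches left out. Those at -0.41 and -0.14 passed through the sham array only, and the one at 0.99 through the AKI array only. The filter nearly fixed the signs of these, and only the probe set used passed on both arrays, so the direction of Ggps1 is not settled.

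Among the late sterol genes, 5 of 12 were at least 2-fold lower, beside 12.4% of all genes. The median of the 12 was -0.88. Fdft1, squalene synthase, catalyses the step that commits farnesyl pyrophosphate to sterols. Its signal was 939 in the AKI pool and 4351.4 in the sham pool (-2.13), and its 4 probe sets were all below 0, from -3.15 to -0.83. Those at -2.07 and -0.83 had 75.7 and 224.1 in the AKI pool and passed through the sham array only. Their direction was therefore nearly fixed by the filter. Sqle, the squalene epoxidase, had 1136 in the AKI pool and 3954.4 in the sham pool (-1.74), from a single probe set. The next genes in the order differed less. Lss, which closes the ring to lanosterol, had 969.3 in the AKI pool and 1511 in the sham pool (-0.60). Cyp51, the lanosterol demethylase, had 1311.6 in the AKI pool and 1602.5 in the sham pool (-0.28), and its second probe set past the filter was at -0.92.

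The 2 genes with sterol C14 reductase activity were both higher in the AKI pool, though by less than 2-fold. Tm7sf2 had a signal of 4846 in the AKI pool and 3587.5 in the sham pool (0.43). Lbr had 1289.3 in the AKI pool and 664.4 in the sham pool (0.89), and with centring on the hybridization controls it was at 1.18. Lbr also encodes the lamin B receptor of the inner nuclear membrane. Each was measured by a single probe set, so neither could be checked by a second. Both stayed above 0 under all 12 alternative settings. With 1 probe set per gene, only the 5 scalings among these could have changed the sign. The difference of Tm7sf2 was smaller than the SD of 0.69 between probe sets.

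Of the demethylation genes that follow, Msmo1 and Nsdhl were at least 2-fold lower and Hsd17b7 was not. Msmo1, the C4 methyl sterol oxidase, had a signal of 756.4 in the AKI pool and 5745.8 in the sham pool (-2.81), and Nsdhl, the dehydrogenase of the same demethylation complex, had 1779.5 in the AKI pool and 5100.8 in the sham pool (-1.48). A second Msmo1 probe set was too weak to pass, with 96.6 in the AKI pool and 22 in the sham pool. Hsd17b7, the ketoreductase of the complex, had 1596.2 in the AKI pool and 2817.1 in the sham pool (-0.79). Its 3 probe sets past the filter disagreed, at -0.79, -0.20 and 0.56, so its direction is not settled.

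At the end of the pathway the differences were uneven. Ebp, the sterol isomerase, was similar in both pools, with 8116.4 in the AKI pool and 9347.9 in the sham pool (-0.20). Sc5d, the desaturase that follows it, had 3176.7 in the AKI pool and 12285.4 in the sham pool (-1.93). The other Sc5d probe sets were at -3.45 and -0.76, the same direction with a spread wider than the SD of 0.69. The one at -3.45, with 178.9 in the AKI pool and 2671.9 in the sham pool, passed through the sham array only. Its direction was therefore nearly fixed by the filter. Dhcr7, whose enzyme reduces the last double bond to give cholesterol, had 1177.9 in the AKI pool and 2367.1 in the sham pool (-0.96).

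**Figure D3:**
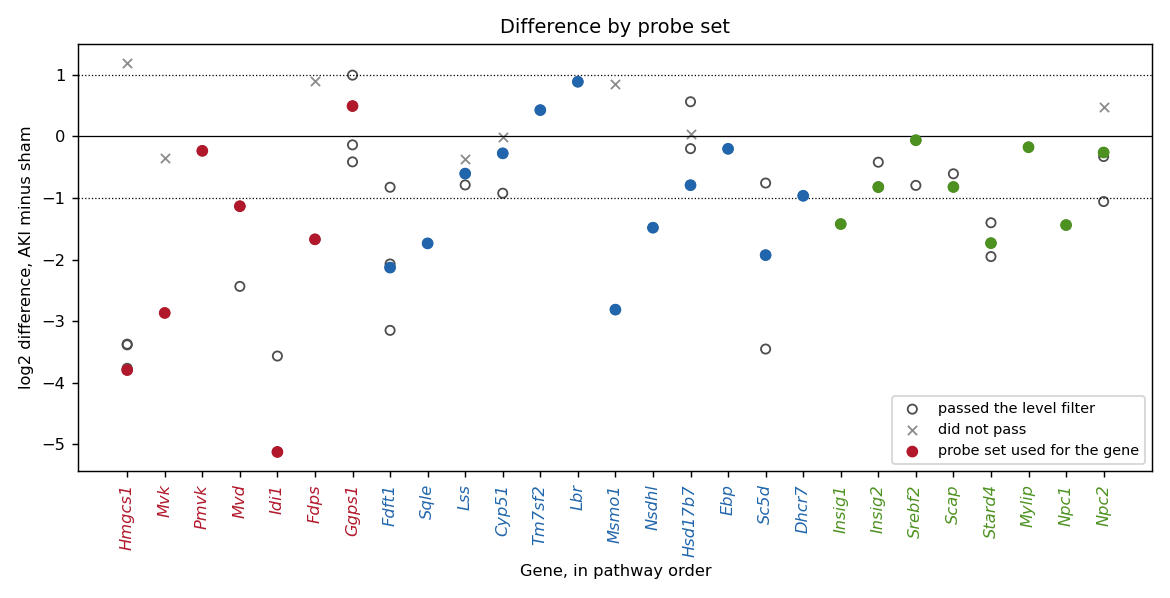
Log2 difference, AKI minus sham (y axis), of all 60 probe sets of the 27 measured genes (x axis, pathway order). Filled points are the probe set used for the gene, open points other probe sets past the level filter, and crosses the 8 that did not pass. Of the 52 that passed, 47 lie below 0, in part because some passed through the sham array only.

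Among the uptake and regulation genes, 8 were measured and all 8 were below 0, beside 51.1% of all genes. At least 2-fold lower were 3, Stard4, Npc1 and Insig1, beside 12.4% of all genes. The median of the 8 was -0.82. Stard4 encodes a soluble protein that moves sterol between membranes. Its signal was 1296.2 in the AKI pool and 4475.9 in the sham pool (-1.73), and its 3 probe sets were close together, from -1.95 to -1.40. Npc1, the membrane protein that releases cholesterol from late endosomes and lysosomes, had 654.3 in the AKI pool and 1897.3 in the sham pool (-1.44). Npc2, the soluble lysosomal protein that hands sterol to NPC1, had 2816.7 in the AKI pool and 3391.5 in the sham pool (-0.26), and its other passing probe sets gave -0.33 and, for the weakest, with 85.3 in the AKI pool and 255.3 in the sham pool, -1.06.

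Of the sensing genes, Insig1 was past the 2-fold threshold and the others were not. Insig1, itself a target of SREBP2, had a signal of 1214 in the AKI pool and 3377.1 in the sham pool (-1.42). Insig2, the other gene of the pair, had 2037.4 in the AKI pool and 3661.8 in the sham pool (-0.82), with its 3 probe sets from -0.82 to -0.42. Scap, the escort gene, had 2647.1 in the AKI pool and 4733.2 in the sham pool (-0.82), and its second probe set was at -0.61. Srebf2, the gene of SREBP2, was nearly level at the main probe set, with 868.4 in the AKI pool and 910.1 in the sham pool (-0.06). Its other probe set had 444.1 in the AKI pool and 823.8 in the sham pool (-0.80), so the size of the Srebf2 difference depends on the probe set. Mylip, whose ubiquitin ligase marks lipoprotein receptors for breakdown, had 1576.1 in the AKI pool and 1789.6 in the sham pool (-0.18).

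Agreement between probe sets could be checked for 14 of the 27 genes. In 12 of these 14 all probe sets past the filter were below 0, and in 2, Ggps1 and Hsd17b7, they went both ways. This agreement is partly built in, because a probe set that passed through the sham array only is nearly bound to lie below 0. Among these are both Idi1 probe sets, the second Mvd probe set (81.9 in the AKI pool) and the second passing Lss and Scap probe sets (126.8 and 145.5). Fdft1 probe sets with 75.7 and 224.1 in the AKI pool, a Sc5d probe set (178.9) and the weakest passing Npc2 probe set (85.3) also belong here. So do the Ggps1 probe sets below 0 (212.1 and 211.1). In the other direction, a Ggps1 probe set at 0.99 passed through the AKI array only. Of the 13 genes that were at least 2-fold lower, 6 had a second probe set past the filter, and in 4 of those 6 every one was at least 2-fold lower, namely Hmgcs1, Mvd, Idi1 and Stard4. The other 7, Mvk, Fdps, Sqle, Msmo1, Nsdhl, Insig1 and Npc1, rest on 1 probe set each. The 8 member probe sets that did not pass were weak on both arrays. Of these 5 were above 0, among them probe sets of Hmgcs1, Fdps, Msmo1 and Npc2 with sham signals between 16.8 and 25.9, whereas 53.0% of all 13559 such weak probe sets were above 0.

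**Figure D4:**
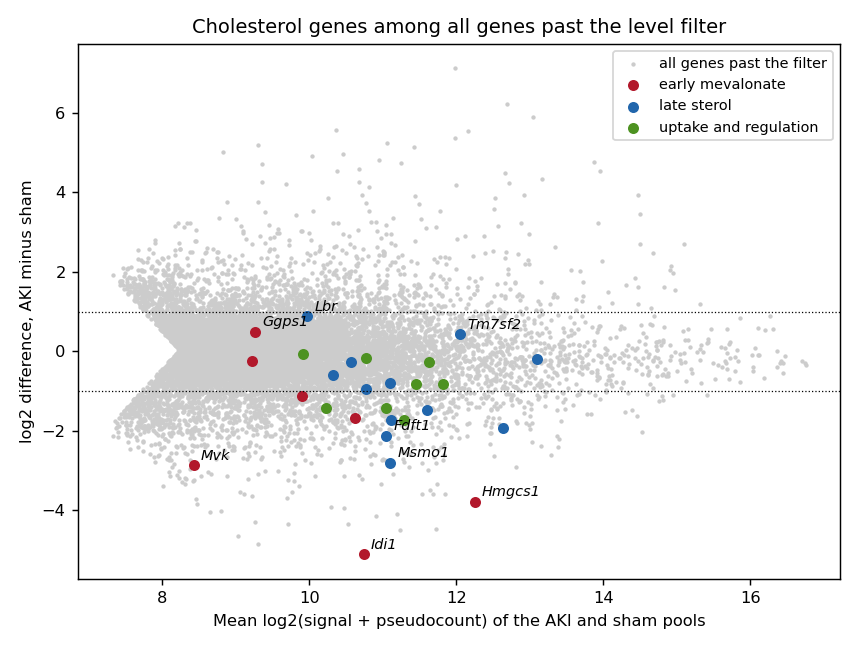
Log2 difference, AKI minus sham (y axis), against the mean log2 of signal plus 71.8 in the AKI and sham pools (x axis) for the 13128 genes past the filter (grey) and the 27 cholesterol genes (coloured by step). Idi1 lies at the bottom of all genes at -5.12, and 0 cholesterol genes lie above the upper dotted line at 2-fold.

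Most cholesterol genes were well expressed. When all genes were split by level into 4 equal classes, the top class held 19 of the 27 and the next one 5. In these classes 13.9% and 9.41% of all genes were at least 2-fold lower, against 12.4% over all classes.

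Other genes of the sterol system were set beside the members. Genes that carry, cleave or degrade SREBP and its partners had a median of 0.11 over 19 genes, which was -0.18 with centring on the reference genes, 0.41 with centring on the hybridization controls, 0.37 with the mean of all probe sets and 0.41 with their median. With centring on the hybridization controls 5 of the 19 were at least 2-fold higher, and with centring on the reference genes 2 were higher and 1 was lower. A pseudocount of 1 also gave 1 lower. At the scaling and pseudocount used, 3 were at least 2-fold higher, beside 10.4% of all genes, and 0 were lower, beside 12.4%. The 3 were Sec24d, a coat protein gene of vesicles that leave the endoplasmic reticulum (2.07), the chaperone gene Hsp90b1 (1.75) and the ubiquitin-conjugating enzyme gene Ube2g2 (1.19). Rnf145, a sterol-responsive ubiquitin ligase gene, had the lowest value, with a signal of 488.2 in the AKI pool and 1038.1 in the sham pool (-0.99). The list of promoter partners and coactivators of SREBP had a median of 0.28 over 11 genes, which turned to -0.01 with centring on the reference genes, to -0.03 with the mean of all probe sets and to -0.06 with their median, and was 0.58 with centring on the hybridization controls. In this list Sp1 was higher (1.29), and Ppargc1b, a coactivator of SREBP, was lower, with 96.8 in the AKI pool and 2027.1 in the sham pool (-3.64), and passed the filter through the sham array only. Nr5a2, a nuclear receptor gene, was at -1.34.

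The isoprenoid branches to dolichol, ubiquinone and prenylated proteins had 4 of 15 genes at least 2-fold lower, beside 12.4% of all genes, 0 higher and a median of -0.33. With centring on the hybridization controls 2 were lower, 1 was higher and the median was -0.03, and with centring on the reference genes it was -0.62. The 4 were Pdss2 (-1.53, with an AKI signal of 143.8, below the filter level), Rabggta (-1.35), Icmt (-1.22) and Fnta (-1.06). Genes of sterol efflux and of its regulator LXR went both ways, and their median over 9 genes was -0.32, or -0.02 with centring on the hybridization controls and -0.61 with centring on the reference genes. Abca1, which exports cholesterol to apolipoprotein A-I, had a signal of 24641.4 in the AKI pool and 5878 in the sham pool (2.05), and its 3 probe sets lay between 1.87 and 2.11. In contrast Abcg5 (-1.91), Lcat (-1.56), Nr1h3, the gene of LXRalpha (-1.43), and Abcg8 (-1.26) were lower. For the 14 genes of intracellular sterol transport and sterol esters the median was -0.54, or -0.24 with centring on the hybridization controls, -0.83 with centring on the reference genes and -0.20 with the mean of all probe sets. Stard5 had a signal of 826.8 in the AKI pool and 3529.4 in the sham pool. Gramd1c (-1.96, with an AKI signal of 204, below the filter level), the lysosomal acid lipase gene Lipa (-1.56) and Stard3 (-1.55) were also past the 2-fold threshold. These are 4 of the 14, beside 12.4% of all genes, with 0 higher, beside 10.4%. The 4 probe sets of Stard5 ranged from -3.80 to -0.05.

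Neighbouring lipid lists were also low. In the list of fatty acid synthesis and SREBP1, 12 of 18 genes were lower by 2-fold or more, beside 12.4% of all genes. Scd1 was higher (1.20), and the median of the list was -1.20. With centring on the hybridization controls 8 were lower and the median was -0.90, and with centring on the reference genes 14 and -1.49. In bile acid synthesis, the main outlet of cholesterol in the liver, 10 of 14 genes were at least 2-fold lower, beside 12.4% of all genes. The median of this list was -1.46. It was -1.16 with 8 genes lower when centred on the hybridization controls, and -1.75 with 10 lower when centred on the reference genes. Cyp7a1, the rate-limiting enzyme of this synthesis, had a signal of 433.2 in the AKI pool and 11475.1 in the sham pool (-4.52). Srebf1 itself had a signal of 2880.5 in the AKI pool and 6749.6 in the sham pool (-1.21), while the 2 probe sets of Srebf2 gave -0.06 and -0.80. With 1 array per group, differences between the lists were not tested.

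**Figure D5:**
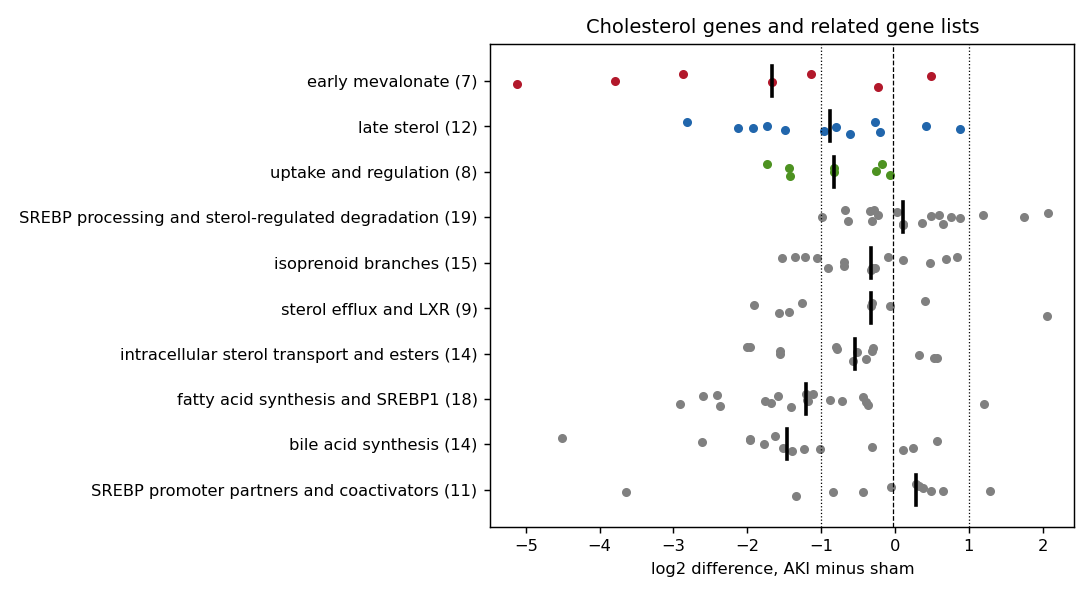
Log2 difference, AKI minus sham (x axis), of each gene past the filter in the 3 steps of the cholesterol list and in 7 related lists (y axis, number of genes in brackets). Vertical bars are list medians, the dashed line is the median of all genes at -0.02 and dotted lines mark 2-fold. The early mevalonate and bile acid lists have the lowest medians, -1.67 and -1.46.

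Markers of other cells differed between the pools as well. A summed signal is carried by its strongest probe sets, so the members that move it are named, chosen after their values were seen. The 8 hepatocyte markers were all below 0, and their summed signal in the AKI pool was 79.4% of that in the sham pool. Of these Ass1, with 185.4 in the AKI pool and 371.4 in the sham pool, passed through the sham array only. Neutrophil markers, of which 4 of 5 named passed the filter, summed to 6172.9 in the AKI pool and 1697.9 in the sham pool, with S100a8, S100a9 and Ngp higher and Mpo level (-0.03). S100a8 and S100a9, with sham signals of 161.4 and 191.2, passed through the AKI array only, so their direction was nearly fixed by the filter. The 6 macrophage markers summed to 7463.8 in the AKI pool and 12210.4 in the sham pool, with 5 below 0 and Marco higher (1.46). Marco, with a sham signal of 187.4, also passed through the AKI array only. The 5 endothelial markers summed to 4267.9 in the AKI pool and 7259.8 in the sham pool, and most of that gap was Clec4g, with 674 in the AKI pool and 3086.1 in the sham pool, while Cdh5 (0.52) and Pecam1 (0.18) were above 0. Stellate cell markers (4 of 4 passed) summed to 17661.2 in the AKI pool and 11234.9 in the sham pool. This came through Dcn alone, with 14722.2 in the AKI pool and 7724.9 in the sham pool. The other 3 were below 0 at the probe set used, and the list median was -0.11. However, a second passing probe set was at 0.92 for Reln and at 1.44 for Des. Lrat, with an AKI signal of 45.5, passed through the sham array only. Cholangiocyte markers (2 of 4 passed) summed to 2799.8 in the AKI pool and 1112 in the sham pool mainly through Sox9, with 1729.9 in the AKI pool and 229.2 in the sham pool, while Epcam was at 0.40 and Krt7, which did not pass, had 30.2 in the AKI pool and 102 in the sham pool. B cell markers (3 of 3) summed to 1701.9 in the AKI pool and 1652.9 in the sham pool. Erythroid (1 of 2 passed) and pancreatic acinar markers (2 of 3) summed to 1324 and 2082 in the AKI pool, against 1209.1 and 2279.5 in the sham pool. None of the 4 T cell markers passed, with signals of at most 140.3, and no marker of any list was at 0. The part of these differences in the cholesterol values was not tested.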

How the data were processed

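The members and gene lists were chosen with earlier results of these data known. Per the labels, liver of 3 mice per group was pooled, total RNA was isolated with Trizol, and 8 ug of it gave the biotinylated cRNA for each Affymetrix array. The deposited values are signal intensities per probe set, from 0.6 to 127786.6, and their software is not given in the sources used. The mean after trimming 2% at each end was 500.0 on both arrays, so a difference in total mRNA between the pools would not show. Of 45037 non-control probe sets, the platform annotation gives 34945 a single symbol, 932 several symbols and 9160 no symbol. The authors' scaling was kept. The pseudocount of 71.8 is the 25th percentile of the table. Thresholds of 2-fold and 4-fold are on that log2 scale and are not tests. Named genes were all members and, of each related list, the 4 at most that differ most in either direction, extended where a count of up to 5 had to be named in full. Srebf1, Alb and the single markers are named outside this rule, after their values were seen. The 12 alternatives cover scaling, pseudocount, level filter and choice of probe set. With 1 array per group, the number of arrays limits the precision. The computation was tested on simulated data and run with pandas 2.3.3, numpy 2.4.6, statsmodels 0.14.6 and matplotlib 3.10.9 under Python 3.11.15.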

Additional observations from a re-analysis of the deposited data

How the results depend on the processing

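No paired analysis was possible because each group is 1 pool on 1 array. All 12 alternatives kept the medians of the members and of their 3 steps below 0. The count of members at least 2-fold lower ranged from 11 to 17, and 10 of the 13 stayed at least 2-fold lower in every setting that gave a value. The exceptions were Mvd under centring on hybridization controls and at the larger pseudocount, and Fdps (-0.38) and Msmo1 (-0.98) with the mean of all probe sets, where weak probe sets are averaged in. That mean also moved the member median to -0.71, Hmgcs1 to -2.63, Idi1 to -4.34 and Mvk to -1.61. Centring on hybridization controls gave medians of -0.67 (members), -1.37 (early), -0.58 (late) and -0.53 (uptake and regulation), put 1 member, Lbr, at least 2-fold higher, and changed the shares of all genes at least 2-fold lower and higher to 8.12% and 16.8%. Centring on reference genes gave -1.25, -1.96, -1.17 and -1.11 for the same medians, 8 members at least 4-fold lower, and shares of 19.3% and 6.73%. A pseudocount of 228.7 left 3 members at least 4-fold lower and shares of 8.09% and 6.40%. With probe sets of possible multiple matches left out, Pmvk and Msmo1 had no value and the early median was -2.27. Apart from these construction effects the cause was not tested. Of 322 member differences under the alternatives, 314 moved by no more than 0.70, the SD between probe sets over all genes. Of the called ones, 0 changed sign. Much of this was fixed in advance. The level filter settings leave each member value unchanged. Median, hybridization control and reference gene centring each shift all members by a common amount below 0.70. A change of pseudocount cannot change a sign, so these counts are no measure of robustness.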
